A study of Mus musculus with 2 samples.

Results

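The subject here is the set of mouse genes for translation initiation and elongation factors, chosen as every protein-coding gene whose symbol begins with Eif or Eef followed by a digit. The rule found 68 genes among the 22028 protein-coding genes of the annotation, and each was looked up in both count tables. The tissue was hippocampus, labelled as female, of the strain B6CASTF1/J (an F1 cross) and of 2 months of age. Its RNA was sequenced as long reads in 2 libraries. Both belong to 1 group with no treatment or engineered allele named in the labels, which number them as biological replicates 1 and 2, so the data allow a description and a comparison of the libraries but no comparison of conditions. The labels give the libraries separate biosample identifiers but the same donor identifier, and their library descriptions are partly identical, so it is not known that they came from separate animals. Every SD (n = 2) below therefore measures the spread between these libraries alone, which may be technical. Each p-value sets the reads of the libraries against counting error and holds no estimate of the spread between libraries or animals.

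Eukaryotic translation starts when a small ribosomal subunit, loaded with initiator tRNA by eIF2, is brought to the capped mRNA by eIF4F and eIF3 and scans to the start codon with eIF1 and eIF1A. Elongation then needs eEF1A, which delivers aminoacyl-tRNA, eEF1B, which recharges eEF1A with GTP, and eEF2, which moves the ribosome along. In neurons these factors are best known as targets of control by eIF2 alpha kinases, 4E-binding proteins and eEF2 kinase, through which synaptic activity and stress alter protein synthesis.

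Several of these genes made more than 1 mRNA in the hippocampus. Selected coding exons of up to 72 bases behind the isoform and exon results are printed here 5′ to 3′ from the GENCODE transcripts on mm10. Those of Eif4h, Eef1d and Eif4enif1 set apart isoforms that were seen, and those of Eif4g1 and Eif4g3 are annotated exons that no read held. Each has 15 bases of the exon before it in lower case. The 5 whole exons are in capitals and are followed by 15 bases of the next exon.
Eif4h, chr5:134624441-134624500, minus strand: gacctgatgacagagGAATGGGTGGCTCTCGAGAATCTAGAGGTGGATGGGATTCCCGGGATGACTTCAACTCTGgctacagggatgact
Eef1d, chr15:75897226-75897282, minus strand: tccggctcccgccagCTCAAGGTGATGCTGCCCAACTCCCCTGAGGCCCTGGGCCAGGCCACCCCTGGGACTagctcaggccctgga
Eif4enif1, chr11:3233988-3234059, plus strand: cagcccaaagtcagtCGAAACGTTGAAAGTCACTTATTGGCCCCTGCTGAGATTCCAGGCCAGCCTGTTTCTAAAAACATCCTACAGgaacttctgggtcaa
Eif4g1, chr16:20674786-20674806, plus strand: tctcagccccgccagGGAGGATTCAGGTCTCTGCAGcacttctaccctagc
Eif4g3, chr4:138095909-138095929, plus strand: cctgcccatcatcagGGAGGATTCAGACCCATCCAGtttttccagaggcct

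An exon of Eif4a2 and another exon of Eif4g1 each began at either of a pair of acceptor sites 3 bases apart. The bases present in the longer form alone are in capitals, and the first bases of the rest of the exon follow in lower case.
Eif4a2, chr16:23108585-23108633, plus strand: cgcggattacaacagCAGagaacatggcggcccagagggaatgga
Eif4g1, chr16:20681734-20681922, plus strand: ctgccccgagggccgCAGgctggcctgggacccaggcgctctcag
The 3 bases were CAG in both genes. All 5 whole exons are annotated as coding and have lengths divisible by 3, and the 21-base exons of the paralogs Eif4g1 and Eif4g3 begin with the same letters.

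The tables held 826596 reads not on spike-ins in replicate 1 and 745492 in replicate 2. Levels are given as counts per 1000000 of these reads (CPM), with no division by length, because 1 long read counts once whatever its length. Whether transcripts of unlike length were captured equally was not tested. A single read was worth 1.21 and 1.34 CPM. A gene without reads may have had up to 3.63 and 4.02 CPM, the limit that 0 reads set. Reads carry no molecular identifiers, so every interval and limit below covers counting error only. Markers of hippocampal neurons were present at uneven levels. Slc17a7, the vesicular glutamate transporter of excitatory neurons, had 1205 and 1182 CPM. Of the granule neuron genes, C1ql2 had 151 and 156 CPM, but Prox1 had 13.3 and 25.5 CPM. Slc32a1, the vesicular transporter of inhibitory neurons, had 0 and 1 read, although Gad1 of the same cells had 292 and 278 CPM. Of the choroid plexus markers Ttr had 328 and 176 CPM, a gap under 2-fold (exact binomial test, adjusted p = 1.29e-06). Kcnj13 had 6 and 2 reads, Folr1 had 1 and 1, Clic6 had 1 and 3, and Aqp1 had no read. Glial transcripts were also present, such as Mbp of oligodendrocytes at 1601 and 1816 CPM, although Mog of the same cells had 7 and 3 reads. In such bulk tissue fewer cells of a type cannot be told apart from less RNA per cell.

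Translation factor genes were broadly detected. Of the 68, 63 had reads in both libraries (92.6%), against 59.2% of the 21960 other protein-coding genes. Their median level, taken over each gene's mean of both libraries, was 62.4 CPM, against 5.04 CPM in the other genes. By library their median was 63.5 CPM in replicate 1 and 59.7 CPM in replicate 2 (SD 2.70, n = 2). At 100 CPM or more stood 20 of the 68 (29.4%), against 8.55% of the others. Together they took 5691 reads in replicate 1, or 0.688% (exact 95% Clopper-Pearson interval 0.671 to 0.707), and 5157 reads in replicate 2, or 0.692% (0.673 to 0.711). The reads were concentrated, with 33.9% of the summed CPM in Eif4g2, Eif4a2, Eif4h, Eif1 and Eif5a and 52.9% in the 10 highest genes.

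**Figure D1:**
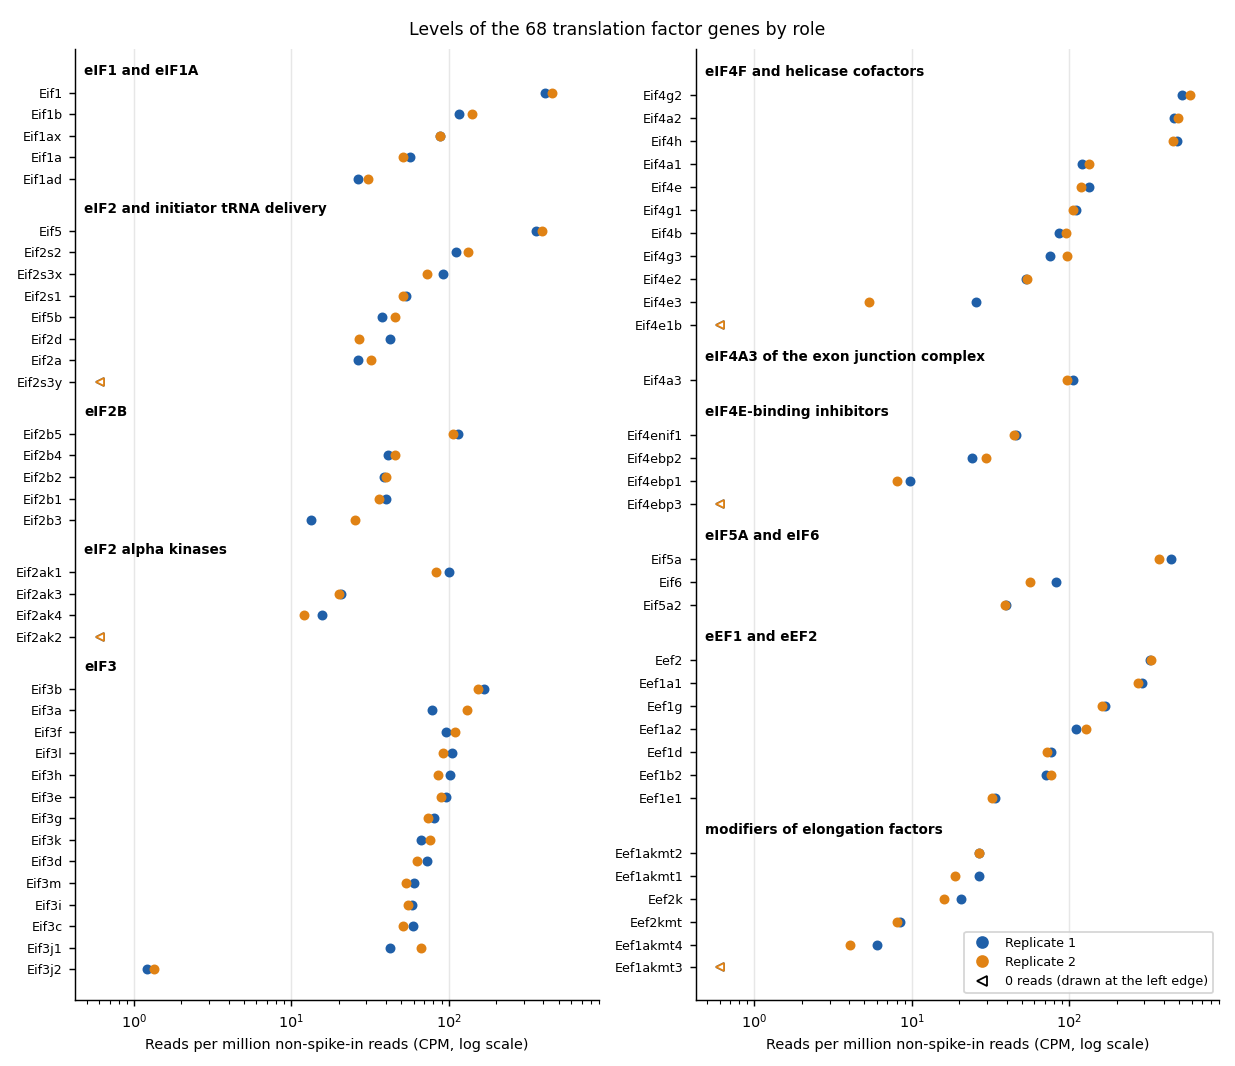
Level of each of the 68 genes in CPM (log axis), grouped by role, with 1 point per library and open triangles at the left edge for genes with 0 reads. The libraries lie close for most genes, and the most abundant genes are spread over several roles.

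The list of eIF4F subunits, their paralogs and helicase cofactors held the largest summed level, 2108 ± 44.9 CPM over 11 genes (SD, n = 2). Eif4g2, a relative of the eIF4G scaffold that lacks the cap-binding partner's docking site and serves cap-independent initiation, was the most abundant translation factor transcript at 523 CPM in replicate 1 and 585 CPM in replicate 2. Eif4a2, 1 of the paralogous RNA helicases of eIF4F, had 463 and 488 CPM, and Eif4h, a small cofactor of that helicase, had 486 and 459 CPM. Eif4g2 was above the other two in both libraries, while Eif4a2 and Eif4h changed places between the libraries. Eif4a1, the other helicase, had 121 and 133 CPM, and Eif4e, the cap-binding protein, had 133 and 118 CPM. Eif4g1, the classical scaffold, had 110 and 106 CPM. Below 100 CPM on average were Eif4b at 90.6, Eif4g3 at 85.8, Eif4e2 at 53.4 and Eif4e3 at 15.4, and Eif4e1b, a germline relative of eIF4E, had no read.

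Reads were divided unequally among the paralogs of eIF4F subunits. Eif4g2 took 73.8% (interval 70.1 to 77.4) and 74.3% (70.5 to 77.8) of reads on the 3 eIF4G genes, Eif4g1 took 15.6% and 13.5%, and Eif4g3 took 10.6% and 12.3%. That split depended on read class. Of 170 Eif4g1 reads 111 came from models that miss part of the annotated intron chain, as did 106 of 134 Eif4g3 reads, and among full-splice reads Eif4g2 took 89.7% and 91.1%. Eif4e held 62.9% and 66.7% of reads on the eIF4E genes, and Eif4e2, a cap-binding repressor of translation, held 25.1% and 30.3%. The remaining eIF4E paralog, Eif4e3, had 21 reads in replicate 1 and 4 in replicate 2.

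Eif4a2 made up 79.3% (75.4 to 82.8) and 78.6% (74.6 to 82.3) of the reads on Eif4a1 and Eif4a2, a mean of 79.0% ± 0.480 (SD, n = 2). This share carries a limit larger than its spread. The processed pseudogene Eif4a-ps4 on chromosome 1 (60703932 to 60705149), an intronless copy 99.9% identical to Eif4a1 over the aligned stretch, was given 48 reads in replicate 1 and 70 in replicate 2, all on its single annotated model. Reads of such copies cannot be told apart with certainty. Counted with Eif4a1 they would raise it to 179 and 227 CPM and lower the Eif4a2 share to 72.1% and 68.3%, so Eif4a2 stayed above Eif4a1 either way. Across the other genes few reads were placed on pseudogenes, but reads of a copy that were placed on its parent gene would not be seen. Of 102 annotated pseudogenes at least 90% identical to a translation factor transcript over at least 50% of their length, 8 had any read, and those other than Eif4a-ps4 had at most 3 reads each over both libraries.

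Eif4a3, the helicase of the exon junction complex rather than of eIF4F, had 106 and 96.6 CPM.

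Among the start-codon factors, Eif1 had 411 and 455 CPM and its close paralog Eif1b had 116 and 140 CPM, so Eif1b made up 22.7% ± 1.03 of the pair (SD, n = 2). Eif1ax, X-linked, had 88.3 and 88.5 CPM and the near-identical Eif1a 56.9 and 51.0 CPM. How reads were divided between such close copies is not stated in the sources used here. Eif1ad was the lowest of the 5 at 26.6 and 30.9 CPM.

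In the group that delivers initiator tRNA, Eif5, the GTPase activator of eIF2, stood far above its partners with 361 and 390 CPM. The eIF2 subunits themselves had 53.2 and 51.0 CPM (Eif2s1, the phosphorylated alpha subunit), 111 and 133 CPM (Eif2s2, beta) and 91.9 and 72.4 CPM (Eif2s3x, gamma), a range of 2.09-fold and 2.61-fold within the complex. Of 130 Eif2s3x reads, 36 were of the genomic class, which matches no spliced transcript. Eif2s3y, the Y-linked copy, had no read in these female samples. Eif5b, Eif2d and Eif2a, which act in subunit joining or in non-canonical initiation, averaged 41.6, 34.6 and 29.4 CPM.

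The exchange factor eIF2B was lower, with a median of 40.1 ± 0.226 CPM over its 5 subunits (SD, n = 2). Its catalytic subunit gene Eif2b5 stood apart at 115 and 107 CPM, 8.64-fold and 4.21-fold above Eif2b3, the lowest at 13.3 and 25.5 CPM. The other 3 subunits lay between 36.2 and 45.6 CPM. Of the eIF2 alpha kinases, Eif2ak1, the haem-regulated kinase, was highest at 100 and 83.2 CPM. The stress kinase of the endoplasmic reticulum, Eif2ak3, had 20.6 and 20.1 CPM, and Eif2ak4, which senses uncharged tRNA, had 15.7 and 12.1 CPM. No read was found for Eif2ak2, the kinase activated by double-stranded RNA.

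Levels within the large scaffold eIF3 spanned less than those within eIF2B and more than those within eIF2. Without Eif3j2, a near-identical copy of Eif3j1 with 1 read in each library, its 13 subunits spanned 3.97-fold in replicate 1 and 3.00-fold in replicate 2. Such a span can grow with the number of subunits, which was 5 in eIF2B and 3 in eIF2. For eIF2B it rested on Eif2b3, with 11 and 19 reads, so the order of the complexes is a description only. Within eIF3, Eif3b was highest in both libraries at 168 and 153 CPM. Eif3f had 96.8 and 109 CPM. Eif3a, the largest subunit, had 78.6 CPM in replicate 1 and 130 CPM in replicate 2, the widest gap in the complex. Eif3j1 at 42.3 and 67.1 CPM was the lowest on average and Eif3c, with 59.3 and 51.0 CPM, was the lowest in replicate 2, so the low end has no fixed order. The other 8 subunits averaged between 56.5 CPM (Eif3i) and 98.9 CPM (Eif3l).

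Of the 4E-binding inhibitors, Eif4enif1, the transporter that carries eIF4E to the nucleus and to P-bodies, was highest at 46.0 and 44.3 CPM. Eif4ebp2, the main 4E-binding protein of brain, had 24.2 and 29.5 CPM, Eif4ebp1 had 9.68 and 8.05 CPM, and Eif4ebp3 had no read. Eif4ebp2 held 71.4% and 78.6% of the 28 reads that these genes had in each library, but 35 of its 42 reads were of the genomic class. Among full-splice reads its share was 33.3% and 37.5%, on 7 reads of Eif4ebp2 and 13 of Eif4ebp1 over both libraries. The order of Eif4ebp2 and Eif4ebp1 thus turned with read class, but so few reads do not settle it.

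Eif5a, the hypusine-bearing factor that helps stalled ribosomes, had 443 and 372 CPM, and its paralog Eif5a2 had 39.9 and 38.9 CPM, or 8.87% ± 0.853 of the pair (SD, n = 2). Eif6, which keeps the ribosomal subunits apart, had 82.3 and 56.3 CPM.

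The elongation factors were led by Eef2 at 324 and 329 CPM and by Eef1a1 at 289 and 274 CPM. Eef1a2, the isoform that replaces eEF1A1 in mature neurons and muscle, had 110 and 127 CPM. It made up 27.6% (22.8 to 32.7) and 31.8% (26.5 to 37.4) of the pair, a mean of 29.7% ± 2.97 (SD, n = 2). Eef1a1 was the more abundant transcript in both libraries. Of the eEF1B subunits, Eef1g had 169 and 161 CPM, Eef1d 76.2 and 72.4 CPM and Eef1b2 71.4 and 76.5 CPM. Eef1e1, a component of the multi-tRNA-synthetase complex despite its name, was the lowest in the list at 33.9 and 32.2 CPM. Enzymes that modify elongation factors were all scarce. Eef1akmt2 had 26.6 and 26.8 CPM, Eef2k, the kinase that inhibits eEF2, had 20.6 and 16.1 CPM, and no read was found for Eef1akmt3. The other methyltransferases were Eef1akmt1 at 26.6 and 18.8 CPM, Eef2kmt at 8.47 and 8.05 CPM and Eef1akmt4 at 6.05 and 4.02 CPM.

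Other genes of the pathway, taken from lists of poly(A)-binding, eIF5A hypusination, accessory initiation, eIF2 alpha phosphatase, signalling, release, other elongation and mitochondrial translation factors, were all detected in both libraries. Their 39 members had a median of 37.7 CPM, and 3 of them reached 100 CPM on average. These were Paip2, an inhibitor of poly(A)-binding protein, at 396 and 298 CPM, Tpt1 at 198 and 208 CPM and Cyfip1, which binds eIF4E with FMRP, at 102 and 122 CPM.

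The reads of the libraries were compared for every gene that had 20 or more in all, by the exact binomial test (two-sided). A gene was called at a 2-fold or larger difference whose p, adjusted by Benjamini and Hochberg, was below 0.05. Over all genes 28 of 9062 were called, or 0.309%. Of the translation factor genes 59 could be tested and 0 were called, with 4 at an unadjusted p under 0.05. Against so low a background a count of 0 among 59 is not a result about these genes. The median size of their log2 ratio was 0.16, against 0.24 over all genes. Such ratios vary more at low read counts, and the genes were not matched for read count. The gap of Eif3a, lower in replicate 1, had an exact binomial p of 0.00160 (adjusted 0.157), and that of Eif4e3, higher in replicate 1, had an exact p of 0.00197 (adjusted 0.173). The other genes with p under 0.05 were Eif5a and Eif3j1. Of the other pathway genes, 0 of 34 tested were called.

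Long reads were sorted by the authors' software into classes. Annotated models took 77.3% ± 0.130 of the reads on translation factor genes (SD, n = 2), against 65.6% on the other protein-coding genes. Unannotated combinations of known splice sites took 4.39%, against 7.57%, and models with an unannotated splice site took 2.35%, against 4.25%. Incomplete splice matches, which cover part of an annotated intron chain, were similar at 13.2%, against 12.7%. Genomic models took 2.70%, against 9.96%. Antisense reads were fewer per sense read, with 4.29 and 4.19 per 100 sense reads on the translation factor genes, against 13.1 and 13.2 on the others. By gene they were more widespread, being found on 48 of the 68 translation factor genes and on 9122 of the 21960 others. The others include 7293 genes without a sense read. These are descriptions of pooled reads in which the most abundant genes weigh most.

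**Figure D2:**
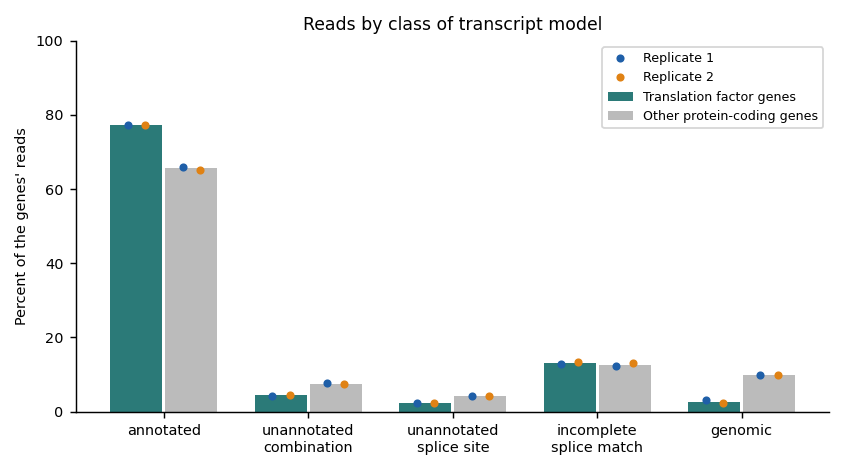
Percent of reads in each class of transcript model, for the translation factor genes and for other protein-coding genes, with bars for the mean of 2 libraries and points for each library. Annotated models take 77.3% against 65.6%, and genomic models take 2.70% against 9.96%.

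Incomplete matches were uneven between genes. They took 41.9% of Eef2 reads, 31.2% of Eef1a1 reads and 46.2% of Eif5b reads, but 0.295% of Eif1 reads. Within the incomplete matches of the whole set, 83.8% of reads covered the 3′ part of the chain, against 68.9% in other genes. Across 59 genes Spearman's rho between a gene's share of incomplete matches and its annotated length was 0.308, and between CPM and length it was -0.120, both as descriptions of points that come from the same libraries.

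Most of the translation factor genes with enough reads were dominated by 1 mRNA form. Isoforms were defined as intron chains among full-splice reads, which are the annotated class and both unannotated spliced classes. In the 46 genes that reached 20 such reads per library, the leading isoform held a median of 93.5%, against 83.7% in 4692 other protein-coding genes. A leading isoform of 90% or more was seen in 29 of the 46, against 1744 of the 4692. More than 1 isoform of at least 10% in both libraries was seen in 7 genes (15.2%), against 30.5% of the others. They were Eef1d, Eif2b4, Eif4a2, Eif4e2, Eif4enif1, Eif4g1 and Eif4h. The count rests on the limits set. It was 11 of 48 (22.9%, against 39.3% of the others) without replicate 2, 4 of 41 (9.76%, against 23.7%) with annotated models alone, and 2 of 46 (4.35%, against 13.2%) at a share of at least 20%. With at least 50 reads it was 2 of 27 (7.41%, against 29.5%), and Eif4a2 and Eif4h were the genes left in both of the last settings. The most abundant gene, Eif4g2, was not among them, since its annotated isoform Eif4g2-213 held 88.0% and 87.8% and the next, which lacks a 66-base exon, 5.74% and 4.77%.

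**Figure D3:**
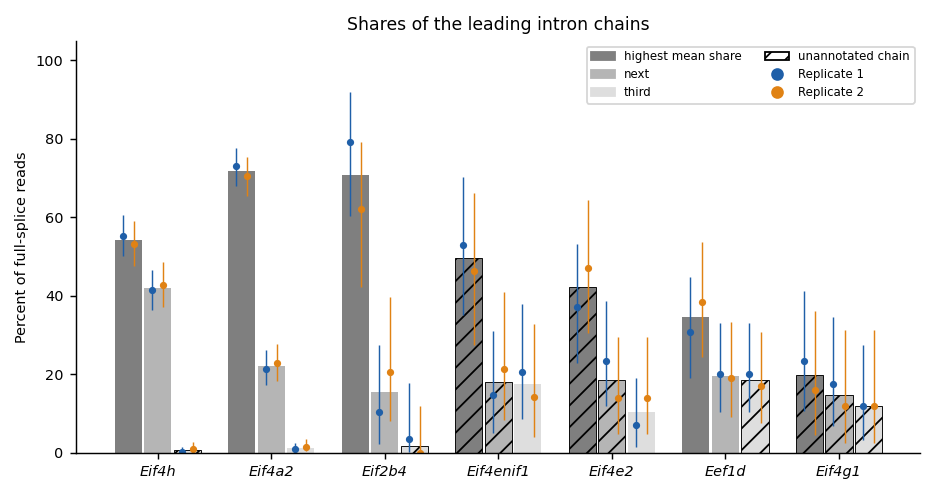
Percent of full-splice reads held by the 3 leading intron chains of the 7 genes with more than 1 isoform, with bars for the mean, hatching for unannotated chains, and points with exact 95% intervals for each library. Eif4h and Eif4a2 have narrow intervals, and Eif4g1, Eef1d and Eif4enif1 have 3 chains of at least 10% in both libraries.

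Eif4h was the most evenly divided of the abundant genes. Eif4h-205, which holds the 60-base exon printed above, had 203 of 367 full-splice reads in replicate 1 and 162 of 304 in replicate 2, or 55.3% and 53.3%. Eif4h-201, which skips it, had 41.4% and 42.8%. Over all reads that span the flanking exons, 57.9% (interval 52.7 to 63.0) and 56.4% (50.6 to 62.0) held the exon. The two-sided Fisher's exact p between the libraries was 0.754.

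In Eif4a2 the leading chains, both annotated, differed by the 3 bases CAG. Eif4a2-201, with the 46-base form of the exon, had 73.0% and 70.6% of full-splice reads, and Eif4a2-203, with the 49-base form, had 21.4% and 22.8%. Over every read through that exon the longer form was used in 79 of 348 and 84 of 344, or 22.7% (18.4 to 27.5) and 24.4% (20.0 to 29.3). Eif4g1 had the same arrangement in another exon, where the 189-base form was used in 24 of 68 and 18 of 55 reads against the 186-base form, or 35.3% and 32.7%. Such pairs of acceptors were not particular to translation factors. With at least 20 reads an exon in each library and 10% for the lesser site, 2 of 51 of these genes had one (3.92%), against 206 of 4793 other protein-coding genes (4.30%).

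Eef1d encodes the delta subunit of eEF1B and is known for a long form, made with a large 5′ exon, that acts in the nucleus. That 1140-base exon was present in 29 of 48 spanning reads in replicate 1 and 26 of 43 in replicate 2, or 60.4% and 60.5%. The leading chain Eef1d-206, which has it, held 30.9% and 38.3%, and Eef1d-218, which lacks it, held 20.0% and 19.1%. A chain of annotated splice sites in a combination not annotated, with both the large exon and the 57-base coding exon printed above, held 20.0% and 17.0%. The 57-base exon was present in 29.1% (17.6 to 42.9) and 30.0% (17.9 to 44.6) of spanning reads.

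The chain with the highest share was unannotated in 3 genes, Eif4e2, Eif4enif1 and Eif4g1, or 6.52% of the 46, against 6.27% of other genes. In Eif4enif1 it held 52.9% and 46.4% and differed from the annotated Eif4enif1-203, with 20.6% and 14.3%, in 1 of 18 introns, whose donor lay 195 bases further on. A further unannotated chain, at 14.7% and 21.4%, skipped the 72-base coding exon printed above, and over all spanning reads that exon was present in 25 of 34 and 22 of 29, or 73.5% and 75.9%. In Eif4e2 the leading chain held 37.2% and 47.2% and had 6 introns, 5 of which make up the whole of the annotated Eif4e2-203. A 79-base exon that is partly coding set the next chain apart, and it was present in 37.8% and 33.3% of spanning reads. In Eif2b4, the other gene with a divided output, Eif2b4-201 held 79.3% and 62.1% and Eif2b4-202 held 10.3% and 20.7%, on 29 reads in each library.

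**Figure D4:**
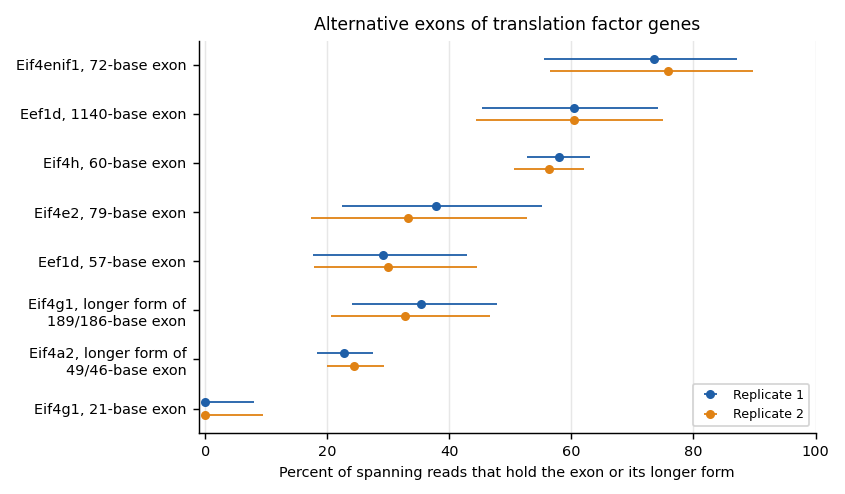
Percent of spanning reads that hold each alternative exon, or the longer form where acceptors lie 3 bases apart, with points and exact 95% intervals for each library. The intervals of both libraries overlap for every exon, and the 21-base exon of Eif4g1 stands at 0.

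Eif4g1 had the most divided output, with leading chains at 23.5% and 16.0%, 17.6% and 12.0%, and 11.8% and 12.0%, on 34 and 25 full-splice reads. Its chains differed by the CAG acceptor and by a non-coding 57-base exon near the 5′ end, present in 73.3% and 61.9% of spanning reads. The coding 21-base exon of Eif4g1, of a size class known as neuronal microexons, was in 0 of 44 and 0 of 37 spanning reads, which over both libraries allows a share of up to 3.70%. For the matching exon of Eif4g3 3 reads spanned the site and 0 held it, so its use was not detectable at this depth. Of annotated inner coding exons with at least 10 spanning reads, at least 1 read held the exon for 0 of 66 with 3 to 8 bases, 3.30% with 9 to 14, 46.1% with 15 to 20, 55.7% of 61 with 21 bases, 93.3% with 22 to 27, 96.4% with 28 to 39, and 98.1% with 40 to 60. Most of those with under 15 bases were thus held by no read. Of the 61 with 21 bases, 27 were held by no read, and the median inclusion in that class was 10.6%. With 22 to 27 bases the median was 97.6%, so exons of 21 bases were held less often than slightly longer ones. The part of alignment in the absence of the Eif4g1 exon was not tested.

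**Figure D5:**
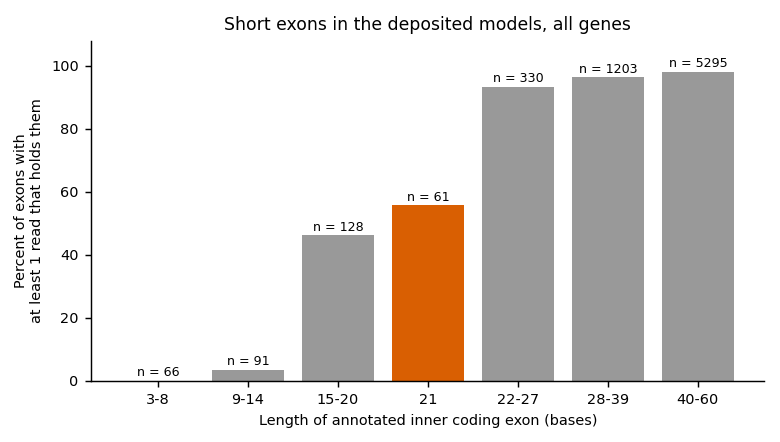
Percent of annotated inner coding exons, over all genes, that were held by at least 1 read, by exon length in bases, with the number of exons above each bar and the 21-base class in orange. The share is 0 for exons of 3 to 8 bases, 55.7% for 21 bases and 98.1% for 40 to 60 bases.

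The share of the leading isoform was compared between libraries with two-sided Fisher's exact tests. Over all genes 9 of 4819 had a Benjamini-Hochberg adjusted p below 0.05, or 0.187%. Of the 46 translation factor genes 0 were called, and 1 had an unadjusted p under 0.05. That gene was Eif4a1, whose isoform Eif4a1-213 held 81 of 81 reads in replicate 1 and 75 of 84 in replicate 2 (Fisher's exact p = 0.00314, adjusted 0.548).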

How the data were processed

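The authors deposited unnormalized counts of reads for each transcript model, in 1 table for each of 2 libraries. Per the file headers, model structures came from TALON. Per the text deposited with them, reads were aligned to mm10 with GENCODE M21. Alleles of the parental strains of the F1 cross were not told apart here. The aligner and platform are not stated in the sources used here. Counts were summed per gene and scaled to 1000000 reads not on spike-ins. Intron chains were joined across libraries. Intervals are exact 95% Clopper-Pearson, and a count of 0 allows 3 counts. With 1 group, edgeR 4.0.16 (R 4.3.3) gave TMM factors only, and the tests were exact binomial and Fisher's tests in scipy 1.17.1, tested on simulated data. Pseudogenes were found with blastn. The members, the role lists and the other lists were chosen with earlier results of these data known. Named genes were those at 100 CPM or more, the highest and lowest of each list, those without reads, those with more than 1 isoform or an unannotated leading one, and the paralog groups. Eif4a-ps4 and the acceptor pairs were added after their values were seen. Depth was 836240 and 752291 reads, of which 9644 and 6799 were on spike-ins.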

Additional observations from a re-analysis of the deposited data

How the results depend on the processing

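Detection stood at 63 genes with full-splice models alone and without either replicate, and at 60 with 5 reads asked for in each library. Between libraries 0 translation factor genes were called for level (other read minimums and folds, TMM scaling, classes counted) or for isoform share (other read minimums, annotated models alone). Over all genes 28 were called, but 62 without genomic models, 14 with full-splice models alone and 52 with no fold limit. The median level was 78.5 CPM with full-splice models alone, scaled to their own total, and 73.9 CPM over the 61 genes with at least 10 reads, and ranged from 59.7 to 63.5 CPM leaving out either replicate. The Eef1a2 share was 32.7% with full-splice models alone and 27.6% to 31.8% leaving out either replicate. The Eif4a2 share was 80.0% without genomic models, 80.3% with full-splice models alone, and 70.2% with the reads of Eif4a-ps4 added to Eif4a1, an alternative chosen after seeing the data. Genes with more than 1 isoform numbered 2 of 27 at 50 full-splice reads and 2 at a 20% share, Eif4a2 and Eif4h in both settings. They numbered 11 at a 5% share (23.9%, against 45.4% of other genes), 4 of 41 with annotated models alone, and 8 to 11 leaving out a replicate. Genes with an unannotated leading isoform numbered 0 of 27 at 50 reads, where Eif4e2, Eif4enif1 and Eif4g1 had too few reads to enter. For the other moves the cause was not tested. No paired analysis was possible because there is only 1 group. Depth limits isoform shares to the 46 of 68 genes that reached 20 full-splice reads in each library, of which 27 reached 50.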
